A study of Mus musculus with 4 samples.

Results

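MaLR, the family of mammalian apparent LTR retrotransposons, is 1 of 47 repeat families in a table of nanoCAGE read counts from mouse oocytes and preimplantation embryos. It was chosen by its name in that table and followed through all 11 columns, as a share of all counts, of the 34 transposon families and of the 9 families with long terminal repeats (LTRs). NanoCAGE selects the capped 5′ ends of RNA from small amounts of material. The stages were fully grown oocytes, 2-cell embryos at 48 h, 8-cell embryos at 68 h and blastocysts at 92 h, all labelled as F1 (C57BL/6J X CBA/H) crosses, with no treatment or mutation named. Each stage is 1 sample, read in runs 1.1, 1.2 and 2, or in runs 1 and 2 at the 2-cell stage. The runs were treated as repeat runs, since nothing says that they came from separate pools of oocytes or embryos. There are therefore no replicates, no p-value was computed between stages, and the range of the runs shows only technical or unlabelled variation.

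MaLR elements are old, non-autonomous relatives of the ERVL retroviruses and fall into the MT (mouse transcript) and ORR1 groups. They lack the genes needed to copy themselves, but their LTRs carry promoters. MT LTRs are known in the mouse as promoters that are active in growing oocytes, where they also serve as alternative first exons of genes, among them an oocyte form of Dicer. The maternal RNA stored in the oocyte is degraded around fertilisation and the first cleavages, while embryonic transcription starts. The table lists the family as a whole, so MT and ORR1 copies were not analysed separately here, and the table holds no genes by which the labelled stages could be checked.

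Total counts ran from 36922 to 1919263 per run. The MaLR count lay between 2479 in blastocyst run 1.2 and 735262 in oocyte run 1.2, so counting error was small everywhere. In the shallowest run the MaLR share of 6.71% had an exact 95% interval (Clopper-Pearson) of 6.46% to 6.97%, which covers counting error only and takes each count as a different read. The runs of each stage differed by more than these intervals. Oocyte run 1.1 and 8-cell run 2 stood apart from the other runs of their stages, with 44.9% and 26.5% of counts from ribosomal RNA (rRNA). The effect of leaving out these runs is given beside the comparisons that rest on them. These runs were singled out after the data had been seen.

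MaLR was the most abundant transposon family of the oocyte. It took 12.9%, 38.3% and 36.2% of all counts in oocyte runs 1.1, 1.2 and 2. The share was 15.6% and 16.5% at the 2-cell stage, in runs 1 and 2. 8-cell runs 1.1, 1.2 and 2 had 17.1%, 23.3% and 7.62%, and the blastocyst runs 10.2%, 6.71% and 9.45%. Oocyte run 1.1 thus lay below both 2-cell runs, whereas the other oocyte runs lay above every embryo run. Among transposon families MaLR ranked first in the 3 oocyte runs and in 2-cell run 2. It ranked behind L1, the autonomous LINE-1 family, in 2-cell run 1, in 8-cell runs 1.1 and 1.2 and in blastocyst run 1.1. In 8-cell run 2 and blastocyst run 1.2 it ranked 4 among transposon families, and in blastocyst run 2 it ranked 3.

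Counted within the transposons, where rRNA and simple repeats play no part, the oocyte runs separated from the embryo. Of the transposon counts in oocyte runs 1.1, 1.2 and 2, 34.1%, 53.9% and 49.7% were MaLR, while 2-cell runs 1 and 2 gave 17.04% and 20.1%. 8-cell runs 1.1, 1.2 and 2 gave 17.9%, 25.5% and 12.6%, and blastocyst runs gave 12.7%, 9.57% and 10.9% in this order. The lowest oocyte run stood above the highest embryo run, 8-cell run 1.2. All 8 embryo runs were lower than all 3 oocyte runs for 1 of the 34 transposon families, which was MaLR (2.94% of families). Without oocyte run 1.1 the low-count families hAT, RTE and Gypsy joined MaLR, and 4 of the 34 were lower in all embryo runs. Without 8-cell run 2 it was MaLR alone, and without both runs there were 5, with CR1 added to hAT, RTE, Gypsy and MaLR. All embryo runs were also lower for 1 of the 9 LTR families as a share of LTR counts (11.1%), again MaLR, with or without those runs. Over all counts MaLR did not separate in this way, and 2 of 47 families did (4.26%), low-complexity sequence and small cytoplasmic RNA. Without oocyte run 1.1 there were 6, MaLR among them.

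Of the 3 scales, the share of LTR counts was the one on which the oocyte runs lay closest to each other. MaLR made up 64.3%, 75.1% and 74.4% of LTR counts in oocyte runs 1.1, 1.2 and 2, a highest-to-lowest ratio of 1.17, against 2.96 for the share of all counts. The 2-cell runs had 42.2% and 36.8%. The 8-cell runs 1.1, 1.2 and 2 had 48.1%, 54.98% and 27.2%, and the blastocyst runs 45.98%, 35.3% and 30.5%. The 3 embryonic stages overlapped with each other on this scale, and none overlapped with the oocyte. By their means the stages ranked oocyte (71.3%), 8-cell (43.4%), 2-cell (39.5%) and blastocyst (37.2%).

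**Figure D1:**
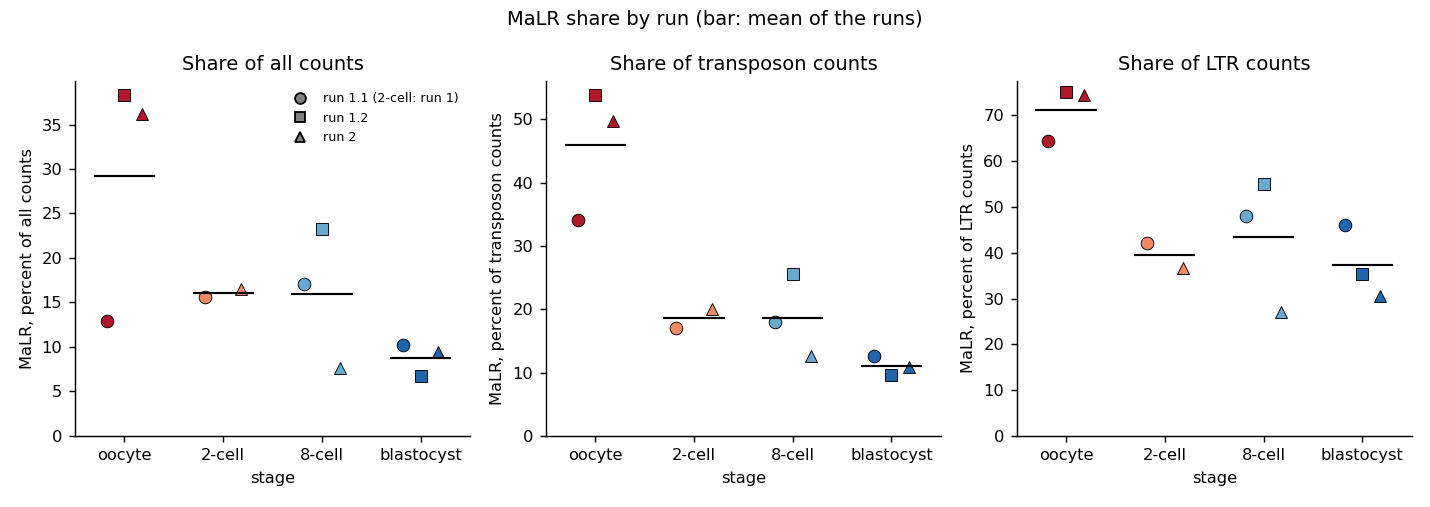
MaLR share in percent (y axis) by stage (x axis), as a share of all counts (left), of transposon counts (middle) and of LTR counts (right); each symbol is 1 run and each bar the mean of a stage's runs. Oocyte run 1.1 overlaps with the embryo runs at left (12.9%), whereas all oocyte runs lie above all embryo runs in the other panels.

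Between oocyte and 2-cell embryo, the step that spans fertilisation, MaLR had mean shares of 29.2% and 16.1% of all counts, 1.82-fold lower with overlapping runs. Fewer MaLR 5′ ends and more ends of other families cannot be told apart in a share. A fall or rise is stated here only where stage means differed at least 2-fold and no run of one stage overlapped the other. MaLR did not pass over all counts, where 8.51% of the 47 families fell, and without oocyte run 1.1 it passed at 2.32-fold. As a share of transposon counts it fell from 45.9% to 18.6%, 2.47-fold, a fall that 2.94% of the 34 transposon families showed, that is MaLR alone. With any 1 run left out it still passed, at 2.26-fold to 2.79-fold. In all 6 pairs of an oocyte and a 2-cell run MaLR was lower in the embryo, by 1.697-fold to 3.16-fold. Summed over both stages 25 transposon families held 100 counts or more, and their median log2 ratio was 0.24 in this step, against -1.31 for MaLR. Of these 25 families, hAT, a DNA transposon family, had a lower ratio than MaLR. As a share of LTR counts MaLR was 1.81-fold lower with separate runs, which is under the 2-fold limit. The runs of 66.7% of LTR families were separate in this step, so that separation there was not rare.

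From the 2-cell to the 8-cell stage the MaLR means were nearly equal. They were 16.1% and 15.99% of all counts and 18.6% and 18.7% of transposon counts. The 8-cell runs spread from below to above both 2-cell runs on each of the 3 scales. With 8-cell run 2 left out, the later stage had 1.26 times the earlier stage's share of all counts, with both remaining 8-cell runs above the 2-cell runs. Pooling counts over runs, which lets the deep 8-cell run 2 dominate, gave 0.552.

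From the 8-cell stage to the blastocyst MaLR had 15.99% and 8.78% of all counts, 1.82-fold lower with overlapping runs, and 4.26% of families fell. The overlap came from 8-cell run 2, without which MaLR fell 2.30-fold. The share of transposon counts was 1.69-fold lower and passed the limit in none of the 6 cases with 1 run left out. From the 2-cell stage to the blastocyst it was 1.83-fold lower over all counts and 1.68-fold lower among transposons. The runs were separate on both scales, as were those of 21.3% of all families and 17.6% of transposon families. As a share of LTR counts these 2 comparisons gave 1.17-fold and 1.06-fold lower means with overlapping runs.

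Between the first and the last stage MaLR fell 3.32-fold over all counts. A fall by this rule was seen in 6.38% of the 47 families. Among transposons MaLR fell from 45.9% to 11.1%, 4.15-fold, where 2.94% of families fell, and 3.79-fold to 4.68-fold with 1 run left out. This was the lowest ratio of the 25 transposon families that held 100 counts or more, whose median log2 ratio was 0.49 against -2.05 for MaLR. In the 9 pairs of an oocyte and a blastocyst run MaLR was between 2.69-fold and 5.63-fold lower in the blastocyst. Its share of LTR counts was 1.91-fold lower, under the limit, with separate runs as in 88.9% of LTR families. That share passed at 2.01-fold without oocyte run 1.1 and at 2.17-fold without blastocyst run 1.1. From oocyte to 8-cell embryo MaLR fell 2.46-fold among transposons, where 8.82% of families fell, and 2.11-fold to 3.01-fold with 1 run left out. In that comparison hAT, RTE and Gypsy had lower ratios than MaLR. Over all counts it was 1.82-fold lower there with overlapping runs, where 6.38% of families fell, and 2.33-fold lower with separate runs without oocyte run 1.1. Counts pooled over runs, in which 8-cell run 2 weighs most, gave 3.73-fold. Its share of LTR counts was 1.64-fold lower there with separate runs, as were the runs of 44.4% of LTR families. The comparisons that start from the oocyte share its runs and are not independent of each other.

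**Figure D2:**
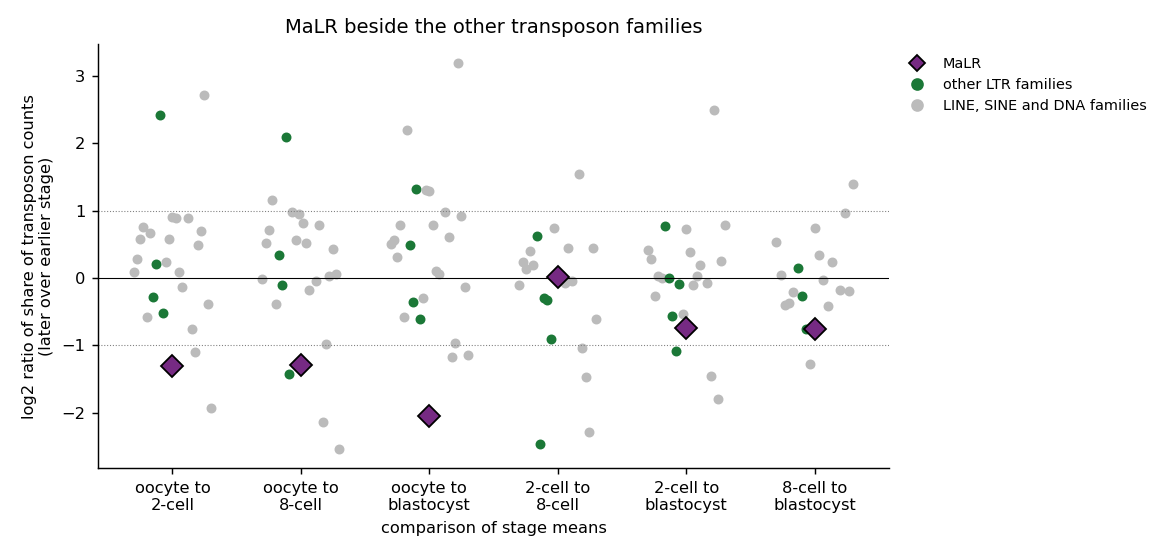
Log2 ratio of the share of transposon counts, later over earlier stage (y axis), for 6 comparisons of stage means (x axis); each point is 1 family that held 100 counts or more, and dotted lines mark 2-fold. MaLR lies at -1.31 from oocyte to 2-cell and at -2.05 from oocyte to blastocyst, where it is the lowest of 25 families, and at 0.01 from 2-cell to 8-cell.

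The other LTR families show what stood beside MaLR in the same class. ERVK, which holds the IAP and ETn elements, made up 21.7% of LTR counts in the oocyte (17.9% to 27.9%). Its later means were 33.2% (2-cell), 28.8% (8-cell) and 34.8% (blastocyst). ERVL, which holds MERVL and its MT2 promoters and is the closest relative of MaLR among these families, had 3.27% in the oocyte (2.003% to 4.51%). It had 23.2%, 21.04% and 16.8% of LTR counts at the following stages, and every embryo run lay above every oocyte run. ERV1, the group related to gammaretroviruses, had 3.696%, 4.07%, 6.67% and 10.9%. The other 5 rows (ERV1?, ERVL?, Gypsy, Gypsy? and LTR) together stayed too small to be seen in the plot of LTR composition. As shares of LTR counts from oocyte to blastocyst, 6 of the 9 LTR families rose and none fell (66.7% passed the rule). ERVL and ERV1 were the risers of high count, and ERV1?, ERVL?, Gypsy? and LTR held fewer than 100 counts each. Among the 5 LTR families that held 100 counts or more MaLR had the lowest ratio in that comparison. A lower MaLR share raises the sum of the other shares of LTR counts. With MaLR left out of the total, ERVK had 75.2% in the oocyte (71.8% to 78.1%) and 55.9% in the blastocyst (49.4% to 59.1%). On that scale ERV1 had 12.4% (9.74% to 16.2%) and 17.7% (8.38% to 27.3%). ERVL had 12.2% (5.61% to 18.1%) and 26.2% (13.2% to 41.9%), and the runs of both families overlapped between these 2 stages. At the 2-cell and 8-cell stages ERVL had 37.9% (27.8% to 47.9%) and 36.6% (33.5% to 40.5%), with all runs above all oocyte runs. ERV1 had 6.82% (4.54% to 9.11%) and 12.4% (7.89% to 16.5%) at the 2-cell and 8-cell stages.

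The difference of the LTR class between oocyte and blastocyst was about that of MaLR. LTR families together took 63.8% of transposon counts in the oocyte and 30.2% in the blastocyst, a difference of -33.6 percentage points, and MaLR alone differed by -34.8 points. Without MaLR the LTR families took 17.9% of transposon counts in the oocyte (17.1% to 18.9%) and 19.1% in the blastocyst (14.9% to 24.9%). In the 2-cell embryo the LTR families without MaLR had 23.4% and 34.5% in runs 1 and 2, above all oocyte runs. By its mean share of transposon counts the class was thus 16.3 points lower at the 2-cell stage than in the oocyte. MaLR was lower by 27.3 points there and the other LTR families were higher by 11.02 points. The runs of the class overlapped in this step, with 53.0% in oocyte run 1.1 and 54.6% in 2-cell run 2. As a share of all counts the class was not lower, with means of 39.9% (oocyte) and 41.0% (2-cell) and overlapping runs.

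**Figure D3:**
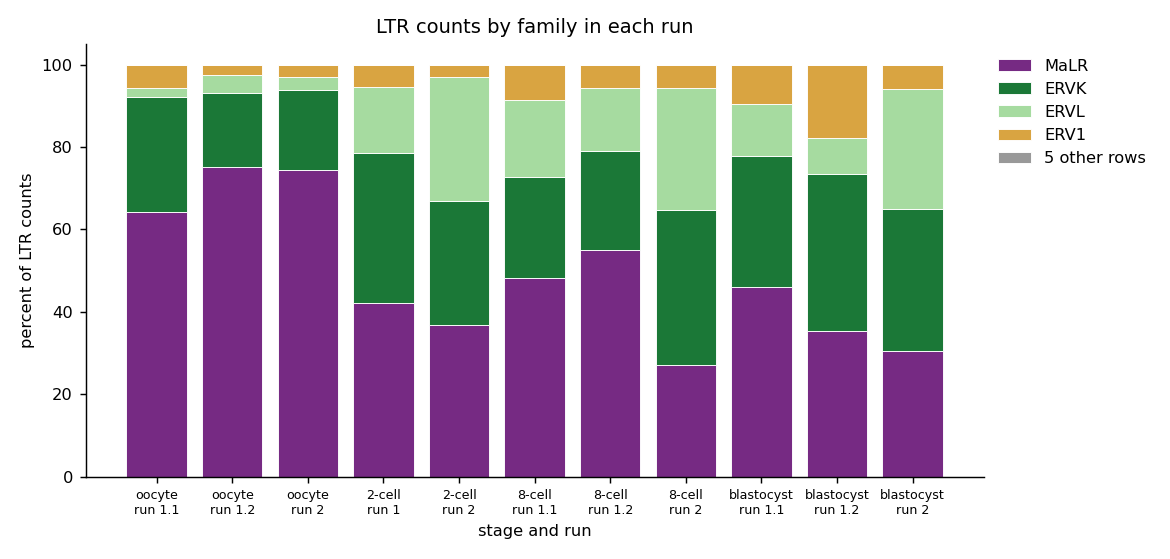
Percent of LTR counts (y axis) taken by each LTR family in each of the 11 runs (x axis); the 5 other rows are too small to be seen. MaLR fills 64.3% to 75.1% of the oocyte bars and 27.2% to 54.98% of the embryo bars, where ERVL has a larger part.

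Ratios of MaLR to another family do not depend on the rest of the table, and were added after the data had been seen. Each also carries the change of the other family, so its fold is not that of MaLR alone. For each count of ERVL there were 32.1, 16.6 and 22.6 counts of MaLR in oocyte runs 1.1, 1.2 and 2. 2-cell runs 1 and 2 gave 2.62 and 1.21, 8-cell runs 1.1, 1.2 and 2 gave 2.60, 3.64 and 0.920, and blastocyst runs gave 3.64, 4.12 and 1.05. The oocyte runs lay far above the embryo runs, and the geometric mean fell 12.9-fold from oocyte to 2-cell, and 10.9-fold without oocyte run 1.1. In that step ERVL itself rose 6.81-fold over all counts, from 1.44% to 9.78%, and L1 rose 2.38-fold. Per ERVK count, oocyte runs gave 2.31, 4.20 and 3.85 MaLR counts and 2-cell runs gave 1.16 and 1.22. 8-cell runs gave 1.95, 2.28 and 0.723, and blastocyst runs gave 1.44, 0.921 and 0.888. The highest 8-cell value lay just under the lowest oocyte value, and the ratio fell 2.80-fold from oocyte to 2-cell and 3.16-fold from oocyte to blastocyst. Without oocyte run 1.1 these falls were 3.37-fold and 3.81-fold. From oocyte to 8-cell MaLR fell 2.27-fold against ERVK, and without 8-cell run 2 it was 1.59-fold lower, under the limit. Per L1 count, oocyte runs gave 1.37, 4.76 and 3.35 MaLR counts and 2-cell runs gave 0.518 and 1.12. 8-cell runs gave 0.538, 0.977 and 0.805, and blastocyst runs gave 0.272, 0.228 and 0.293. This ratio passed the rule in 2 steps, from oocyte to 2-cell (3.67-fold lower) and from 8-cell to blastocyst (2.85-fold lower), and its 2-cell and 8-cell runs overlapped. Without oocyte run 1.1 the first of these was 5.23-fold, and without 8-cell run 2 the second was 2.76-fold.

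**Figure D4:**
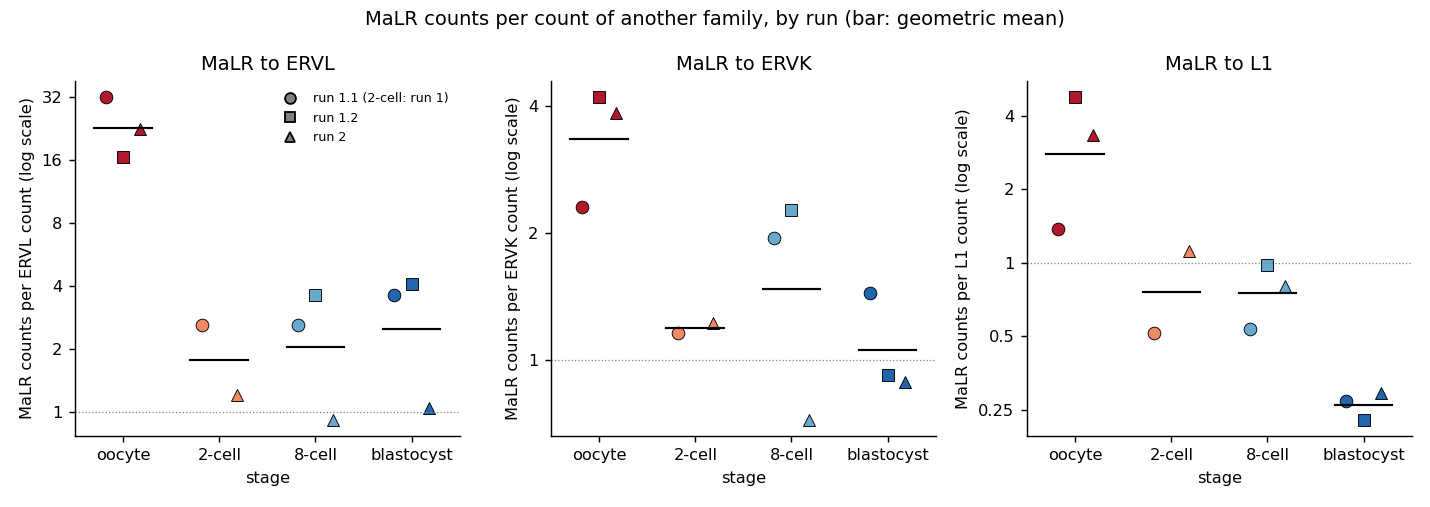
MaLR counts per count of ERVL, ERVK and L1 (y axes, log scale) by stage (x axis); each symbol is 1 run, each bar the geometric mean of a stage's runs and the dotted line equal counts. Oocyte runs lie above all embryo runs in each panel, and the blastocyst runs lie below all others for L1 only, at 0.228 to 0.293.

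The same ratio was taken against every family that held 100 counts or more and had no run at 0. From oocyte to 2-cell it fell for 13 of 35 families and rose for 3, low-complexity sequence, satellites and small cytoplasmic RNA, while 31.3% of all 630 pairs of families passed in either direction. Without oocyte run 1.1 it fell for 18 and rose for 3. From oocyte to blastocyst MaLR fell against 23 of 34 families and rose against none, with 30.4% of 595 pairs passing, and without oocyte run 1.1 it fell against 24. Among transposon families it fell against 20 of 23, the others being CR1, an old LINE family, RTE, another LINE family, and hAT. The SINE families B1 (listed as Alu), B2 and B4, short elements copied by LINE proteins, were among the 20. Per B2 count, oocyte runs 1.1, 1.2 and 2 gave 6.26, 14.5 and 12.02 MaLR counts, 2-cell and 8-cell runs gave 1.70 to 3.84, and blastocyst runs gave 1.41 to 2.58. From 2-cell to 8-cell 1 of 32 ratios fell and 1 rose, where 9.47% of 528 pairs passed, and without 8-cell run 2 these were 2 and 4. From 8-cell to blastocyst 7 of 28 fell and 1 rose (16.3% of 406 pairs), and without 8-cell run 2 16 fell and 1 rose. From oocyte to 8-cell 13 of 33 fell and 2 rose (25.8% of 561 pairs). Without oocyte run 1.1 the latter were 17 and 3, and without 8-cell run 2 they were 13 and 5. From 2-cell to blastocyst 9 of 32 fell and none rose (12.3% of 528 pairs). The shares of all pairs were computed with every run kept, so the counts with a run left out have no matching share. With fewer runs, separation is easier for any pair of families, so a higher count there cannot be read as a result about MaLR.

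The pattern over the stages was then compared with that of the other families. Likeness was measured by the root mean square difference of log2 shares of all counts over the 4 stage means, each family centred on its own mean, among 34 other families with at least 100 counts over all runs and no run at 0. The nearest were rRNA (0.52), CR1 (0.52) and simple repeats (0.58), and the farthest were the DNA transposon families TcMar (1.97) and Tc2 (1.87) and the satellites (1.96). Over the 11 runs in place of the 4 stages the nearest were RTE (0.79), ERVK (0.81) and CR1 (0.86). rRNA ranked 29 of 34 by this second measure (1.87), and its oocyte mean holds run 1.1 at 44.9%, beside 14.0% and 10.3% in runs 1.2 and 2. Over the 4 stages rRNA ranked 9 without oocyte run 1.1 and 24 without 8-cell run 2, whereas CR1 ranked 1 and 2. CR1 had 0.230% of all counts in the oocyte and 0.191% in the blastocyst, with overlapping runs and a far lower level than MaLR. The shares of a run add up to its total, so families are not independent, and these values describe the table without a test.

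Other features of the runs differed too, within stages as well as between them. The median placement score was 50, 53 and 35 for oocyte runs 1.1, 1.2 and 2, then 24 and 43 (2-cell), 16, 28 and 54 (8-cell) and 16, 32 and 15 (blastocyst). The stage means of the score were 46, 33.5, 32.7 and 21 from oocyte to blastocyst. The mean MaLR shares of all counts had the same order, with 29.2%, 16.1%, 15.99% and 8.78%. Single runs did not all keep this order. Runs 8-cell 2 and oocyte 1.2, with the highest scores of 54 and 53, had MaLR shares of 7.62% and 38.3% of all counts. The counts in the table were 0.797 to 2.07 times the lines of the matching read file, with 2.07, 1.40 and 0.797 in oocyte runs 1.1, 1.2 and 2 against 0.947 to 1.16 for embryo runs. Per 100 lines of the read file there were 26.7, 53.5 and 28.9 MaLR counts in oocyte runs 1.1, 1.2 and 2 and 7.41 to 22.6 in the embryo runs, so that all oocyte runs lay above all embryo runs. This value is the share of all counts times the counts per line. The place of oocyte run 1.1 above the embryo runs thus rests on its 2.07 counts per line, since its share was 12.9%. The part of the score and of the counting in the MaLR differences was not tested beyond these values.

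The read names hold a field that was taken here to mark the sequencing run, which was inferred from its form. By this field 3 pairs of stages shared a sequencing run. Oocyte runs 1.1 and 2 shared one with blastocyst run 1.2, and there MaLR was 3.66-fold lower in the blastocyst over all counts. That value depends on the oocyte run, since run 1.1 alone gave 1.93-fold and run 2 alone 5.40-fold. Oocyte run 1.2 and 8-cell run 1.2 shared another, with 38.3% and 23.3% of all counts, 1.65-fold lower in the 8-cell embryo. 2-cell run 2 and 8-cell run 2 shared one more, with 16.5% and 7.62%, 2.17-fold lower in the 8-cell embryo, unlike the means of all runs. In both of these cases it was 1 run against 1, which gives no check by overlap. No sequencing run held both oocyte and 2-cell libraries, 8-cell and blastocyst libraries, or 2-cell and blastocyst libraries, so in these comparisons the sequencing run and the stage cannot be told apart.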

How the data were processed

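The authors deposited a table of read counts per repeat family, 1 column per run, and for each run a file of placements of 25-base reads with a score that they deposited without a stated scale. The submitters' processing notes name the build mm9 and the tool CASAVA. Which aligner and repeat annotation were used, and how reads with several placements were counted, is not given in the sources used here. Run totals ranged from 36922 to 1919263 counts.

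Shares are MaLR counts over the sum of the run's counts in 47 families, in 34 transposon families (LTR, LINE, SINE and DNA) or in 9 LTR families. A stage's value is the equal-weight mean of its runs. A family was called where stage means differed at least 2-fold and no runs overlapped. This rule was fixed for all 6 pairs of stages. Simulated counts for oocyte against blastocyst checked only that the ratio of means is recovered. They held counting error but no other difference between runs of a stage, so they cannot show how the rule behaves on these runs. Families named are MaLR, the LTR families, L1, B1, B2, B4, rRNA, and the 3 most and 3 least like MaLR. Others (hAT, RTE, Gypsy and small families) are named as members of counts after their values were seen. Classes were assigned to family names from general knowledge. MaLR and the lists were chosen with earlier results of these data known. Read files gave only lines, scores and sequencing runs as inferred from a field of the read names. No repeat annotation was at hand, so no MaLR copy or sequence is shown. Alternatives were other denominators, size factors, pooled counts, geometric means, a minimum of 100 counts, 1 run left out and shared sequencing runs. Python 3.11.15, pandas 2.3.3 and scipy 1.17.1 were used.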

Additional observations from a re-analysis of the deposited data

How the results depend on the processing

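Values are ratios of the later to the earlier stage for the MaLR share of all counts. Those against L1, ERVK and ERVL compare MaLR with 1 family and also carry that family's own change. Values per read-file line also carry the table's counts per line, which were highest in oocyte run 1.1 (2.07). From oocyte to 2-cell (0.551, not passing) it passed at 0.404 among transposons, 0.488 without rRNA, 0.473 per read-file line, 0.386 with size factors, and 0.273, 0.357 and 0.0777 against L1, ERVK and ERVL. From oocyte to 8-cell (0.548) it was 0.268 with pooled counts and passed at 0.407 among transposons, 0.431 per read-file line, 0.425 with size factors, and 0.269, 0.441 and 0.0897 against L1, ERVK and ERVL. From 2-cell to 8-cell (0.996) it turned to 1.01 among transposons, 1.1002 among LTR families, 1.102 with size factors, and 1.24 and 1.15 against ERVK and ERVL, and was 0.462 within the shared sequencing run, which is 1 run against 1 and cannot overlap. From 8-cell to blastocyst (0.549) it passed at 0.486 with size factors and 0.350 against L1, and turned to 1.02 with pooled counts and 1.22 against ERVL. From 2-cell to blastocyst (0.547) it passed at 0.345 against L1 and turned to 1.40 against ERVL. From oocyte to blastocyst (0.301) it passed under every alternative run except the share of LTR counts (0.522).

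With 1 run left out, the ratios ranged from 0.431 to 0.653 for oocyte to 2-cell, 0.769 to 1.26 for 2-cell to 8-cell (0.968 without 2-cell run 1), 0.435 to 0.711 for 8-cell to blastocyst (0.528 without blastocyst run 2), 0.423 to 0.692 for oocyte to 8-cell (0.429 without oocyte run 1.1), 0.504 to 0.611 for 2-cell to blastocyst and 0.236 to 0.357 for oocyte to blastocyst. Among transposons they were 0.822 to 1.17 for 2-cell to 8-cell, which turned to 0.930 without 2-cell run 1 and 0.822 without 8-cell run 1.2. Among LTR families they were 0.954 to 1.31 for 2-cell to 8-cell, and 0.833 to 1.03 for 2-cell to blastocyst, where 1.01 was without 2-cell run 1, 0.884 without 2-cell run 2 and 1.03 without blastocyst run 2. The causes of these changes were not tested. No paired analysis was made because each stage is 1 sample and its run numbers, whose meaning the labels do not give, were treated as repeat runs. With 1 sample per stage, more depth would not add replicates.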
